A study of Homo sapiens with 6 samples.

Results

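Ephrins and their Eph receptors were followed here at the RNA level in HaCaT, a line of immortalised human keratinocytes, after an siRNA against PSENEN. The 10 genes were chosen by name: the ephrin genes EFNA1, EFNA4, EFNA5, EFNB1 and EFNB2 and the receptor genes EPHA1, EPHA2, EPHA4, EPHB2 and EPHB4. They are 10 of the 27988 genes that reference transcripts name in the libraries and 10 of the 22 ephrin and Eph genes of the human annotation (8 ephrins, 14 receptors). A gene's level is the sum of the TPM (a relative abundance within a library, corrected for transcript length) of its reference transcripts. All 10 were above 0 in all 6 libraries.

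RNA sequencing of total RNA was done on 3 libraries from cells given 100 pmol of the PSENEN siRNA and 3 from cells given a mismatch siRNA, whose amount the labels do not state apart. Both groups are the same line, grown in high glucose medium with 10% serum and transfected with a lipid reagent. RNA was taken at 48 and 72 h, and the labels do not say which time was sequenced. A group with reagent alone was not analysed here. The labels do not say whether the 3 libraries of a group came from separate cultures, so p-values measure only the spread between these libraries, which may be technical.

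Ephrins are ligands held at the cell surface, the A class by a lipid anchor and the B class by a membrane-spanning segment with a cytoplasmic tail. Eph receptors are receptor tyrosine kinases, and because ligand and receptor both sit on membranes, signalling starts where cells touch and can run forward into the receptor cell and in reverse into the ligand cell. In the epidermis the family is known for sorting cells, for cell junctions and for keratinocyte differentiation. PSENEN codes for one subunit of the γ-secretase complex, a protease within the membrane known to cut Notch receptors and also ephrin-B ligands and several Eph receptors after their outer part is shed. RNA levels do not measure that cutting.

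Ephrin-B1 RNA showed the clearest difference among the 10 genes: EFNB1 stood at 65.2% of its control level, with all 3 PSENEN siRNA libraries below all 3 mismatch siRNA libraries. EFNB2, the other B-class ligand, was at 85.1% with the same separation, which 13.7% of all genes tested had too. EFNA1, the most abundant of the 10, was at 75.0% with 1 pair of libraries crossing. None of the 10 passed the test over all genes (limma, adjusted p under 0.05), against 0.409% of the 15647 genes tested. The receptors had no shared direction: EPHB4 and EPHA1 lay within a few percent of control, EPHA4 and EPHB2 were higher in mean without passing the test, and the sign of EPHA2 depended on which transcripts were summed.

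PSENEN itself, the siRNA target, measured 1.75, 2.08 and 1.496 TPM with the PSENEN siRNA (libraries 1 to 3) and 6.58, 8.85 and 6.55 TPM with the mismatch siRNA (libraries 1 to 3). The groups were apart, and 24.2% of the control level was left (log2 change -1.58, SE 0.18, limma adjusted p = 0.0471). That call was lost when any 1 library was left out (adjusted p 0.110 to 0.155). A change, here and below, is the group mean of log2(TPM + 1) with the PSENEN siRNA minus that with the mismatch siRNA, a scale that shrinks the fold of genes at low levels. Values always follow library order, 1 to 3. Libraries held 9.16 to 15.6 gigabases of aligned sequence, estimated from coverage and FPKM, with 9.16 to 11.9 in the PSENEN siRNA group and 11.5 to 15.6 in the mismatch group. Keratinocyte markers were above 0 for 10 of 10 genes, summing to 3388 to 4120 TPM in PSENEN siRNA libraries and 3526 to 7906 TPM in mismatch siRNA libraries. KRT14 varied most among the controls, at 675, 3913 and 146 TPM, against 1559, 1419 and 1313 TPM with the PSENEN siRNA. Of the 10 markers, 6 were lower at an unadjusted limma p under 0.05, against 8.49% of all genes tested. Of 5 markers each for fibroblasts, melanocytes, immune and endothelial cells, 2 were above 0. PTPRC was listed at 0 throughout, and COL1A2, MLANA and PECAM1 had no reference transcript in any library. The immune list summed to 11.2 to 16.8 against 12.4 to 21.4 TPM, all of it CD68 and CD74, and the other lists summed to at most 1.47 TPM. What part depth or the keratinocyte markers have in the differences below was not tested. In bulk RNA, fewer cells that express a gene and less of its RNA per cell cannot be told apart.

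**Figure D1:**
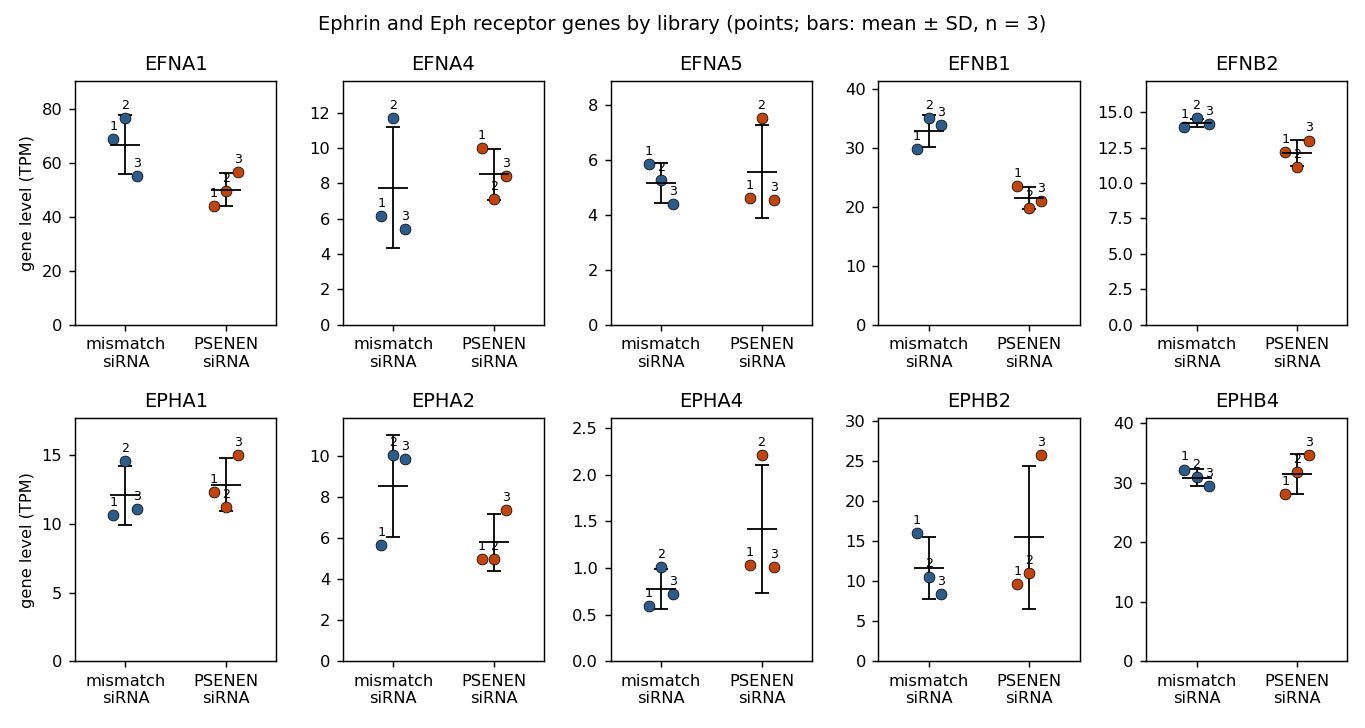
Gene level in TPM (y axes, from 0) in each mismatch siRNA (blue) and PSENEN siRNA (orange) library for the 10 genes, with library numbers; bars are the mean ± SD (n = 3). EFNB1 and EFNB2 are the 2 genes whose PSENEN siRNA libraries all lie below control, as for 13.7% of all genes tested. Library 3 of the PSENEN siRNA group stands alone at 25.7 TPM for EPHB2.

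In control cells EFNA1 was the most abundant of the 10 at 66.7 ± 10.9 TPM (SD, n = 3), apart from all others. EFNB1 (33.0 ± 2.73) and EPHB4 (30.9 ± 1.39) followed, and their libraries overlapped. After a gap came EFNB2 (14.2 ± 0.306), EPHA1 (12.1 ± 2.14), EPHB2 (11.7 ± 3.88), EPHA2 (8.53 ± 2.47), EFNA4 (7.76 ± 3.43) and EFNA5 (5.17 ± 0.725), each overlapping the next. EPHA4 was lowest, at 0.774 ± 0.214 TPM, apart from EFNA5. TPM is corrected for length, so these levels can be ordered between genes. The order is that of reference transcripts: with intron-sharing assembled transcripts EPHA2 had a control mean of 16.6 ± 5.77 TPM, above the values just given for EFNB2, EPHA1 and EPHB2.

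The B-class ligands are the members known as γ-secretase substrates among the ephrins. Both have a single reference transcript in the files, so no split between reference isoforms enters their levels. Intron-sharing assembled transcripts held 11.8% and 11.7% of EFNB1 TPM in PSENEN siRNA libraries 2 and 3. For EFNB2 they held 11.0% in mismatch library 1, and for both genes 0% in the remaining libraries. EFNB1 (ENSG00000090776, GRCh38 chromosome X, 68828997 to 68842147, plus strand) is read through transcript ENST00000204961, of 5 exons. EFNB2 (ENSG00000125266, chromosome 13, 106489731 to 106535662, minus strand) is read through ENST00000245323, also of 5 exons. The bases before their starts are shown because these were the 2 genes whose libraries were all lower, and because RBPJ, the DNA-binding partner of cut Notch, is known to bind the core TGGGAA. The windows are from RefSeq on GRCh38.p14, 5′ to 3′ on the gene's strand, with matches to TGGGAA on either strand in capitals. The EFNB1 window is chrX:68828771-68828996, ending where the annotated transcript begins. The EFNB2 window is chr13:106535663-106535912, before the RefSeq start. The EFNB2 transcript read here spans 106489731 to 106535114 on the minus strand, so this window does not adjoin its start.

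EFNB1: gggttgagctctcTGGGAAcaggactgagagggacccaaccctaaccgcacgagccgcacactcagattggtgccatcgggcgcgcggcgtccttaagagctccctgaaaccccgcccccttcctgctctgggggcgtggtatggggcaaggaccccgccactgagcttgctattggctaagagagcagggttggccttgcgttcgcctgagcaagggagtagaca

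EFNB2: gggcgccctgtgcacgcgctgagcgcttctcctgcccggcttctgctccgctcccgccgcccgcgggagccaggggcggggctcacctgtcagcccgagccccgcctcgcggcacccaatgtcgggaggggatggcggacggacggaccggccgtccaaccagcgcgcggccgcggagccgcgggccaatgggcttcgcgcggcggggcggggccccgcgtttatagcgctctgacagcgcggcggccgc

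EFNB1 had 1 match, 237 bases before its RefSeq start, and EFNB2 had none in this window. Over the 250 bases before the start, EPHA1 was the only other of the 10 genes with the word, 224 bases before, so 2 of 10 held it. Among all 35116 RefSeq windows of that length 20.8% held it. A match is a description of the letters and shows no binding.

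EFNB1 was at 23.6, 19.9 and 21.0 TPM with the PSENEN siRNA and at 29.9, 35.1 and 34.0 TPM with the mismatch siRNA. The lowest control library was above the highest PSENEN siRNA library by more than the SD of either group. The means were 21.5 ± 1.87 and 33.0 ± 2.73 (SD, n = 3), a change of -0.60 (standard error 0.12, 95% interval -0.89 to -0.31). Its unadjusted limma p was 0.00229 and its adjusted p over all genes 0.123, so it did not pass. A pair of assembled transcripts of 4 and 3 exons shared an intron with EFNB1, at 2.66 TPM in PSENEN siRNA library 2 and 2.79 TPM in library 3. With them the gene was at 23.6, 22.6 and 23.8 TPM against the same control values, still apart, with a change of -0.48 (limma adjusted p = 0.132).

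EFNB2 was at 12.2, 11.2 and 13.0 TPM with the PSENEN siRNA and at 14.0, 14.6 and 14.2 TPM with the mismatch siRNA. The controls were tightly grouped and all lay above the PSENEN siRNA libraries. The change was -0.22 (standard error 0.11, 95% interval -0.50 to 0.06, limma adjusted p = 0.479). EFNB2 was the only 1 of the 10 genes with the word TGGTTCT in its 3′ UTR, against 18.1% of 10674 tested protein-coding genes. A count of 1 in 10 lies near that background. PSENEN and EPHA1 hold that word in their coding sequences. The word was chosen with earlier results of these libraries known. Its part in the EFNB2 level was not tested. Summed, the 2 B-class ligands were at 35.8, 31.1 and 34.0 TPM against 43.9, 49.7 and 48.1 TPM, or 71.2% of control, with no overlap.

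With EFNB1 and EFNB2, 2 of the 10 genes had all PSENEN siRNA libraries below control, against 13.7% of all genes tested, and 1 (EPHA4) had all above, against 8.21%. At an unadjusted limma p under 0.05, 2 of the 10 were lower (EFNB1 and EFNA1), against 8.49% of all genes, and none were higher, against 4.49%. The median change of the 10 was 0.05, beside -0.04 over all genes tested, and 4 of 10 changes were below 0, beside 54.6% of all genes. These counts lie near the background shares. With intron-sharing assembled transcripts added, none of the 10 passed, against 0.489% of 16362 genes. The groups were then apart with the PSENEN siRNA lower for 3 (EFNB1, EFNB2 and EFNA1), against 14.3%, and higher for none, against 7.82%.

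**Figure D2:**
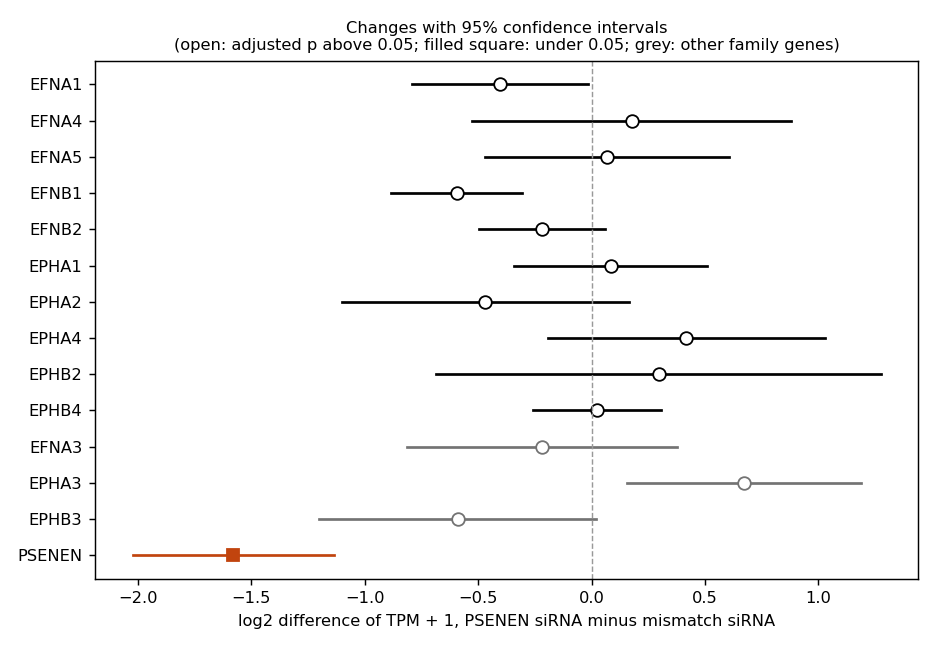
Log2 difference of TPM + 1 between PSENEN siRNA and mismatch siRNA (x axis) with its 95% confidence interval for the 10 genes (black), 3 other tested family genes (grey) and PSENEN (filled square). The intervals of EFNB1 (-0.89 to -0.31) and EFNA1 (-0.79 to -0.01) lie below 0, though neither passed over all genes.

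Among the A-class ligands, EFNA1 (ENSG00000169242, chromosome 1, 155127460 to 155134857, plus strand) is the ligand best known in keratinocytes as a partner of EphA2. It was at 44.0, 49.6 and 56.4 TPM with the PSENEN siRNA and at 68.7, 76.5 and 55.0 TPM with the mismatch siRNA. PSENEN siRNA library 3 was above mismatch library 3, and the other libraries were apart. The change was -0.40 (standard error 0.16, 95% interval -0.79 to -0.01, unadjusted p = 0.0442, limma adjusted p = 0.369). The gene has 5 reference transcripts in the files, of which 2 are coding.

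The main coding transcript of EFNA1, ENST00000368407, was at 30.3, 34.1 and 28.4 TPM against 25.5, 31.8 and 38.4 TPM, with overlap. The shorter coding transcript, ENST00000368406, was at 0.861 and 0.769 TPM in libraries 1 and 2 and listed at 0 in library 3 with the PSENEN siRNA, and at 11.0, 12.1 and 0.478 TPM in the controls. A non-coding transcript, ENST00000469878, was at 12.6, 14.4 and 27.4 TPM against 31.8, 30.8 and 15.8 TPM. Mismatch library 3 departed from its group in both of these last transcripts, and PSENEN siRNA library 3 in the non-coding one. The 2 coding transcripts together were at 31.1, 34.8 and 28.4 TPM against 36.5, 43.9 and 38.9 TPM, and here the groups did not overlap, as for 15.9% of 10693 genes with a coding transcript (exact two-sided permutation p = 0.1, the smallest that 3 against 3 libraries allow). Adding assembled transcripts that share an intron with EFNA1 gave 57.5, 54.0 and 66.0 TPM against 68.7, 79.7 and 73.4 TPM, also apart, with a change of -0.32 (limma adjusted p = 0.285).

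EFNA4, which encodes another lipid-anchored ligand, was at 10.0, 7.11 and 8.43 TPM with the PSENEN siRNA and at 6.15, 11.7 and 5.43 TPM with the mismatch siRNA. Mismatch library 2 was the highest of the 6 and the other controls the lowest, so the groups overlapped (change 0.18, standard error 0.29, limma adjusted p = 0.823). With intron-sharing assembled transcripts EFNA4 was at 11.4, 8.55 and 8.43 TPM against 7.90, 11.7 and 10.0 TPM. The groups still overlapped, and the change was -0.0504 (limma adjusted p = 0.931). EFNA5, known from axon guidance, was at 4.62, 7.52 and 4.55 TPM against 5.84, 5.27 and 4.40 TPM (0.07, standard error 0.22, adjusted p = 0.924). PSENEN siRNA library 2 stood above all others. Its transcript ENST00000611503, which is coding and begins at an internal start, was at 1.05, 1.33 and 1.34 TPM against 0.245, 0.349 and 0.264 TPM, with no overlap; it was picked after its values were seen. The 3 A-class genes summed to 58.6, 64.3 and 69.4 TPM against 80.6, 93.4 and 64.8 TPM, with 1 crossing as for EFNA1.

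Among the receptors, EPHA2 (ENSG00000142627, chromosome 1, 16124337 to 16156087, minus strand) is the main EphA receptor of keratinocytes. By reference transcripts it was at 5.001, 4.999 and 7.39 TPM with the PSENEN siRNA and at 5.68, 10.0 and 9.86 TPM with the mismatch siRNA. The groups overlapped (change -0.47, standard error 0.26, limma adjusted p = 0.500). This value rests on a minority of its signal in most libraries. Assembled transcripts without a reference name that share an intron with EPHA2 held a further 12.9, 16.8 and 7.87 TPM with the PSENEN siRNA and 15.3, 0 and 8.82 TPM in the controls. Counted library by library there were 24 of them, with up to 16 exons, so a form found in several libraries counts each time. These transcripts held 72.0%, 77.1% and 51.6% of the EPHA2 total against 72.9%, 0% and 47.2%.

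With them EPHA2 was at 17.9, 21.8 and 15.3 TPM against 21.0, 10.0 and 18.7 TPM, and the sign turned to 0.18 (limma adjusted p = 0.804). Mismatch library 2, the control with no such transcript, went from the highest by reference transcripts to the lowest. No direction of EPHA2 can be read from these files. The full coding transcript ENST00000358432 was at 0.0351 TPM in PSENEN siRNA library 2 and at 2.53 to 8.28 TPM in the other 5 libraries.

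EPHA1 (ENSG00000146904, chromosome 7, 143390289 to 143408892, minus strand), a receptor found mainly in epithelia, was at 12.3, 11.2 and 15.0 TPM with the PSENEN siRNA and at 10.6, 14.5 and 11.1 TPM with the mismatch siRNA. The groups overlapped (change 0.08, standard error 0.18, limma adjusted p = 0.868). The 1 coding transcript, ENST00000275815, of 18 exons, held 52.4%, 62.8% and 75.1% of EPHA1 TPM with the PSENEN siRNA and 93.0%, 90.7% and 85.0% in the controls. All PSENEN siRNA libraries were lower, by 26.1 percentage points in mean (63.4% ± 11.3 against 89.6% ± 4.14, SD, n = 3; exact two-sided permutation p = 0.1). Of the 8 genes with more than 1 reference transcript it was the only 1 whose groups did not overlap in this share, against 6.52% of 10094 such genes with a lower share and 5.15% with a higher share. A count of 1 in 8 lies near that background.

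The remainder of EPHA1 was in transcripts annotated as retaining an intron. ENST00000488068, of 16 exons, was at 2.74 and 2.89 TPM in PSENEN siRNA libraries 1 and 2 and listed at 0 in the other 4 libraries. ENST00000497891 was at 1.75, 0.0866 and 2.27 TPM against 0.0830, 0.175 and 0.530 TPM. The coding transcript alone was at 6.44, 7.06 and 11.3 TPM against 9.87, 13.2 and 9.42 TPM, with overlap. ZYX, on the opposite strand, overlaps the annotated EPHA1 gene by 823 bases and was at 28.9, 14.3 and 14.0 TPM against 8.82, 9.75 and 10.9 TPM. The overlap lies before position 143391112, where the first of the EPHA1 reference transcripts in the files begins, so it touches none of the transcripts that carry the EPHA1 values.

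**Figure D3:**
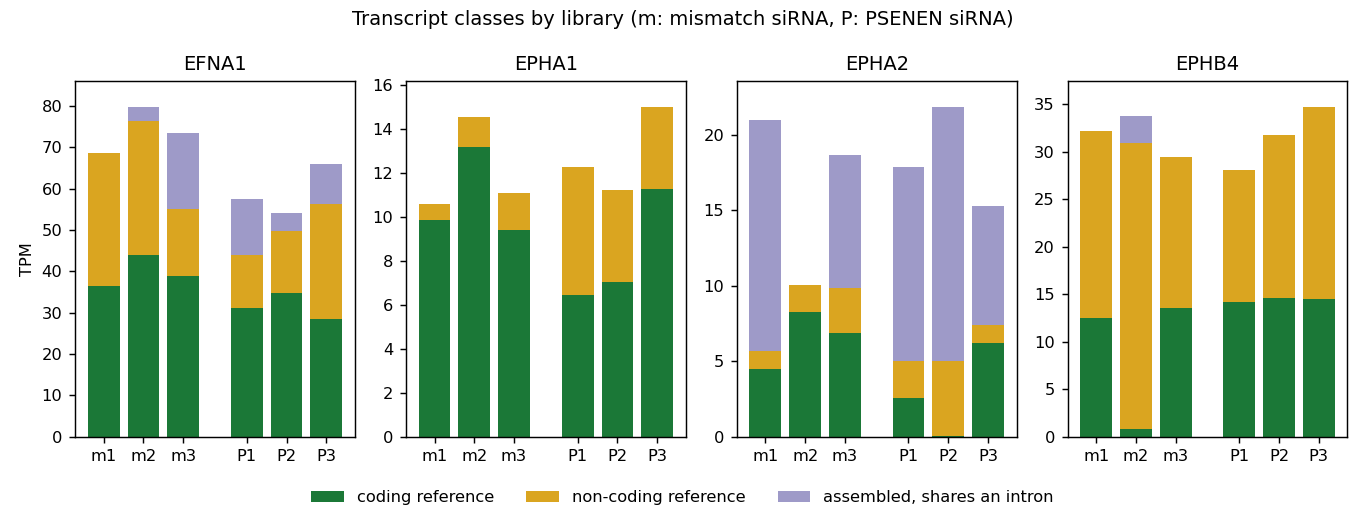
TPM (y axes) of EFNA1, EPHA1, EPHA2 and EPHB4 in each mismatch siRNA (m1 to m3) and PSENEN siRNA (P1 to P3) library, stacked by coding reference transcripts, non-coding reference transcripts and assembled transcripts that share an intron with the gene. The coding part of EPHA1 is 52.4% to 75.1% in P1 to P3 against 85.0% to 93.0% in m1 to m3, and most of EPHA2 is assembled in 4 of 6 libraries.

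EPHA4 (ENSG00000116106, chromosome 2, 221418027 to 221574202, minus strand), a receptor that binds ligands of both classes, was at 1.03, 2.21 and 1.01 TPM with the PSENEN siRNA and at 0.593, 1.01 and 0.720 TPM with the mismatch siRNA. The lowest PSENEN siRNA library and the highest control differed in the third decimal only (1.012 and 1.010 TPM). The change was 0.42 (standard error 0.25, limma adjusted p = 0.529). Among reference transcripts only partial ones of 2 or 3 exons carried it, and the 1 coding transcript among them, ENST00000541600, was listed at 0 in PSENEN siRNA library 1. A further 8 assembled transcripts of up to 7 exons, counted library by library, shared an intron with EPHA4. With them it was at 5.36, 3.50 and 1.01 TPM against 1.28, 1.57 and 0.720 TPM, so that the groups overlapped and the change was 0.84 (limma adjusted p = 0.442).

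EPHB4 (ENSG00000196411, chromosome 7, 100802565 to 100827521, minus strand), the receptor that prefers ephrin-B2, was the steadiest of the 10 genes. It was at 28.0, 31.7 and 34.7 TPM with the PSENEN siRNA and at 32.2, 30.9 and 29.4 TPM with the mismatch siRNA. The groups overlapped, and the change of 0.02 had a 95% interval of -0.26 to 0.31 (limma adjusted p = 0.949), which leaves room for changes of that size. Its 8 reference transcripts traded places between libraries. A 16-exon transcript annotated as retaining an intron, ENST00000487222, had the highest mean over the 6 libraries, at 10.4, 11.0 and 10.8 TPM against 15.2, 17.4 and 9.61 TPM.

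The 2 coding EPHB4 transcripts were the other large part. ENST00000358173 was at 14.1, 14.6 and 6.40 TPM with the PSENEN siRNA and at 1.25, 0.135 and 13.6 TPM in the controls. ENST00000360620 was listed at 0 in PSENEN siRNA libraries 1 and 2 and in mismatch library 3, and was at 8.05 TPM in PSENEN siRNA library 3 and at 11.2 and 0.640 TPM in mismatch libraries 1 and 2. Together they gave 14.1, 14.6 and 14.4 TPM against 12.5, 0.775 and 13.6 TPM, with all PSENEN siRNA libraries higher, as for 7.9% of genes with a coding transcript. Mismatch library 2 stands apart, with 9.71 TPM in a further retained-intron transcript, ENST00000478459, against 0.699 to 5.42 TPM elsewhere, while its gene sum is in the range of the others.

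EPHB2 (ENSG00000133216, chromosome 1, 22710839 to 22921500, plus strand), a receptor of B-class ligands known from intestinal crypts, was at 9.69, 11.0 and 25.7 TPM with the PSENEN siRNA and at 16.0, 10.6 and 8.45 TPM with the mismatch siRNA. PSENEN siRNA library 3 stood above the other 5, and without it the change turned from 0.30 (standard error 0.40, limma adjusted p = 0.786) to -0.12. In that library both coding forms were high: ENST00000374630 was at 18.5 TPM against 8.16 to 14.7 elsewhere. ENST00000374632 was at 7.07 TPM against 0.165 to 1.09 elsewhere. The same library has the fewest gigabases (9.16); the part of depth was not tested. Class sums of receptors overlapped between groups, at 18.3, 18.4 and 23.4 TPM against 16.9, 25.6 and 21.7 TPM for the 3 EphA genes and 37.7, 42.8 and 60.4 TPM against 48.2, 41.5 and 37.9 TPM for the 2 EphB genes.

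**Figure D4:**
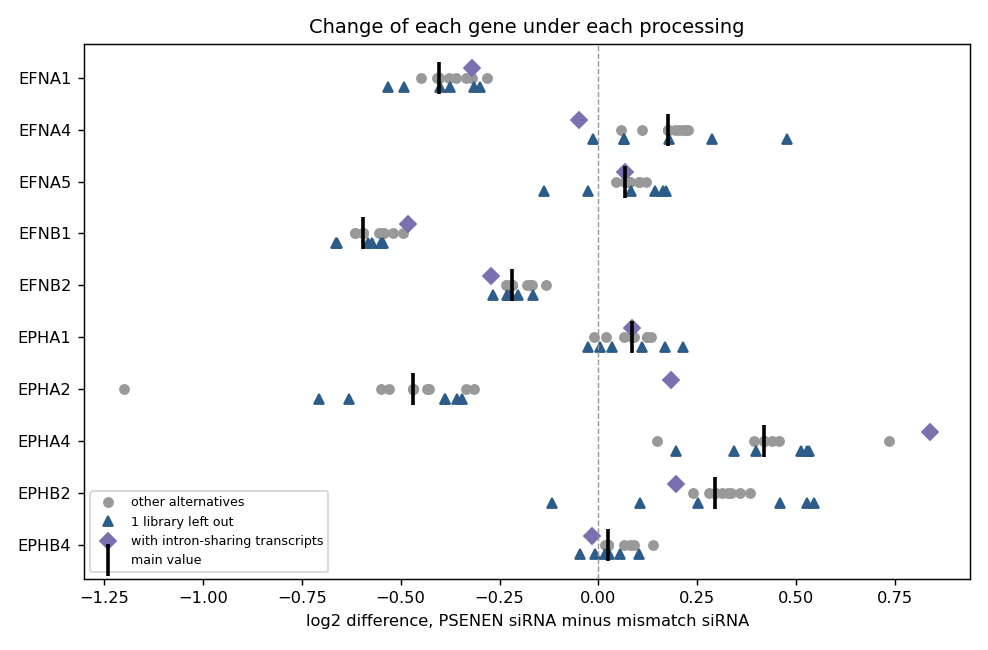
Log2 change of each of the 10 genes (x axis) as reported (black bar), with intron-sharing assembled transcripts (diamonds), with 1 library left out (triangles) and under other processing (grey). EFNB1 ranges from -0.66 to -0.48 and stays below 0, whereas EPHA2 runs from -1.20 to 0.18.

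Of the 12 other ephrin and Eph genes, 6 were above 0: EFNA3, EPHA3, EPHB3 and EPHB6 in all libraries, EPHA10 in 1 library (0.103 TPM) and EPHB1 in another (0.214 TPM). EPHA3 was at 2.77, 2.03 and 1.86 TPM with the PSENEN siRNA and at 0.663, 1.30 and 1.11 TPM with the mismatch siRNA, with no overlap (change 0.67, standard error 0.21, unadjusted p = 0.0185, limma adjusted p = 0.280). EPHB3 was at 21.0, 16.1 and 11.9 TPM against 20.1, 23.3 and 31.5 TPM, with overlap (-0.59, standard error 0.25, limma adjusted p = 0.398). With intron-sharing transcripts EPHB3 was at 29.2, 29.8 and 24.2 TPM against 29.8, 42.1 and 44.7 TPM, all PSENEN siRNA libraries lower, the nearest pair at 29.79 and 29.84 TPM (-0.46, unadjusted p = 0.0395, limma adjusted p = 0.317). EFNA3 was at 7.44, 5.43 and 7.33 TPM against 5.53, 8.75 and 10.2 TPM (-0.22, adjusted p = 0.739). EPHB6, whose product lacks kinase activity, was below the level set for testing by reference transcripts, at 0.492 to 2.52 TPM. With intron-sharing transcripts EPHB6 was tested, at 0.904, 3.41 and 2.26 TPM against 3.15, 3.08 and 4.48 TPM, with overlap (-0.59, limma adjusted p = 0.477). By reference transcripts EFNA2, EFNB3, EPHA5, EPHA6, EPHA7 and EPHA8 were listed at 0 or not listed in any library.

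The genes through which Ephs and ephrins signal were read from 4 lists, whose counts stand beside 0.409% called, 8.49% lower and 4.49% higher at an unadjusted p under 0.05 over all genes. Of 34 genes of forward signalling, adaptors and kinases among them, 31 were tested and none passed (limma, adjusted p), with 4 lower and 2 higher at an unadjusted p under 0.05 and a median change of -0.04. The lower were NGEF, CRKL, ROCK2 and VAV2 and the higher ABL1 and LIMK1, named after their values were seen. The most abundant were RAC1, at 155, 178 and 145 TPM against 165, 153 and 120 TPM, RHOA and CRK, with changes of 0.13, 0.07 and -0.09. The groups overlapped for RAC1 and RHOA. CRK was at 45.8, 48.6 and 48.3 TPM against 49.6, 51.8 and 50.4 TPM, apart but not past the test (limma adjusted p = 0.703).

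Of 13 genes of reverse signalling through the ephrin-B tail, 12 were tested and none passed, with 1 lower (PARD6B) and 1 higher (PTPN13) at an unadjusted p under 0.05, also named after the fact, and a median of 0.05. TAX1BP3, STAT3 and SDCBP were the most abundant, with changes of -1.03, -0.16 and -0.22. TAX1BP3 was at 14.7 TPM in PSENEN siRNA library 2 and at 121 to 140 TPM in the other 5, and without that library its change was -0.02. SDCBP, the syntenin gene, was at 26.9, 82.6 and 62.6 TPM against 47.1, 68.5 and 69.2 TPM, with overlap.

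Of 15 proteases and phosphatases known to act on Ephs or ephrins, 13 were tested and 1 was called lower, PSENEN itself, against 0.281% of all genes, with 1 more lower at an unadjusted p under 0.05 (ACP1), and the median was -0.21. The most abundant were MMP14 and PTPRF. MMP14, a protease known to cut EphA2, had all 3 PSENEN siRNA libraries below control, as for 13.7% of all genes tested. It was at 70.2, 56.9 and 78.5 TPM against 79.8, 89.8 and 85.5 TPM (change -0.32, limma adjusted p = 0.403). PTPRF was at 61.4, 69.4 and 75.3 TPM against 73.7, 86.6 and 82.7 TPM, with overlap (-0.24, limma adjusted p = 0.454). Of 12 epithelial partners of EphA2 and ephrin-B1, 11 were tested and none passed, with 5 lower and 1 higher at an unadjusted p under 0.05 and a median of -0.33, beside -0.04 over all genes. The lower were CDH1, TP63, AFDN, DSG3 and GJA1, named after their values were seen, and 3 of them are keratinocyte markers too. All 5 were apart in the direction of EFNB1, as for 13.7% of all genes tested with the PSENEN siRNA lower. GJA1, with the lowest adjusted p of the 5, was at 10.9, 9.77 and 11.2 TPM against 18.8, 19.6 and 20.1 TPM (-0.82, limma adjusted p = 0.0611). The higher was CLDN1, claudin-1 of tight junctions and a known partner of ephrin-B1, at 119, 119 and 119 TPM against 82.3, 78.6 and 76.7 TPM (0.58, limma adjusted p = 0.0608). CLDN1 libraries were apart, as for 8.21% of all genes tested with the PSENEN siRNA higher, in the direction opposite to EFNB1. EGFR, CTNNB1 and CLDN1 were the most abundant. EGFR was at 126, 148 and 127 TPM against 115, 113 and 124 TPM, all PSENEN siRNA libraries higher (0.18, limma adjusted p = 0.492). CTNNB1 was at 99.6, 97.0 and 96.3 TPM against 96.5, 122 and 105 TPM, with overlap (-0.14, limma adjusted p = 0.643).

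**Figure D5:**
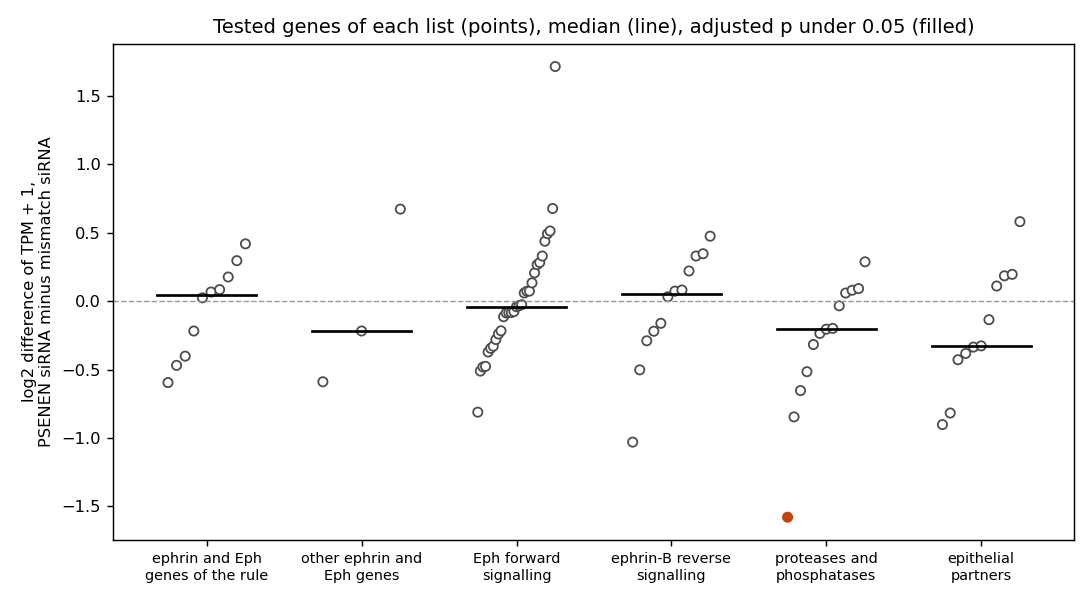
Log2 difference of TPM + 1 (y axis) for the tested genes of each list (points, sorted within a list), with the median (line) and genes with an adjusted p under 0.05 filled. PSENEN, at -1.58, is the only filled point, and the list medians lie between -0.33 and 0.05.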

How the data were processed

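Total RNA of HaCaT cells was sequenced in 6 libraries. Each deposited file is a StringTie assembly of 1 library, per the file headers, and the authors deposited TPM, FPKM and coverage for each transcript as text attributes (other values, with no read count). Bowtie 0.12.2, mm8 and mm9 (mouse builds) stand in the submitters' processing notes, although the files are human. Aligner options and strandedness are not stated in these sources. Of 92476 reference transcripts, 92263 were in GENCODE 29 (GRCh38) and 90743 (98.4%) had the same position.

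TPM was summed by gene over reference transcripts (66.4% to 68.6% of a library's TPM). Assembled transcripts with an exact intron of 1 gene held another 5.09% to 5.44% in PSENEN siRNA and 5.61% to 6.33% in mismatch siRNA libraries. Genes that reached 1 TPM in 3 or more libraries were fitted with limma 3.58.1 (R 4.3.3, intensity trend, group only, 4 residual degrees of freedom) on log2(TPM + 1), adjusted by Benjamini-Hochberg over all genes and called under 0.05. Single values were compared by exact permutation. The fit was tested on simulated data. Tables were made in Python 3.11.15 (pandas 2.3.3, NumPy 2.4.6, SciPy 1.17.1) and figures with matplotlib 3.10.9. Every member and PSENEN is named, other family genes when above 0 TPM, and from each list those called and the most abundant up to 3. Further list genes at an unadjusted p under 0.05 were named after their values were seen. The members and lists were chosen with earlier results of these data known. Alternatives were FPKM, assembled bases, intron-sharing transcripts, pseudocounts of 0.1 and 5, no filter or 5 TPM, 2 scalings, no trend, array weights, a replicate block and each library left out. RefSeq promoter windows matched all 10 members.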

Additional observations from a re-analysis of the deposited data

How the results depend on the processing

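None of the 10 ephrin and Eph genes was called under any of the 18 alternatives, 6 of which leave out a library, and the smallest adjusted p of any was 0.0964. EFNB1 (-0.66 to -0.48), EFNB2 (-0.27 to -0.13) and EFNA1 (-0.53 to -0.28) kept their sign in all 18, and EPHA4 (0.15 to 0.84) in the 15 where it was tested. The sign reversed with intron-sharing transcripts for EFNA4 (-0.0504), EPHA2 (0.18), EPHB4 (-0.0165) and SDCBP (0.28), and with assembled bases for EPHA1 (-0.0112). With 1 library left out, some changes crossed 0: EFNA4 ran from -0.0132 to 0.48, EFNA5 from -0.14 to 0.17, EPHA1 from -0.0256 to 0.21, EPHB2 from -0.12 to 0.54, EPHB4 from -0.046 to 0.10, RAC1 from -0.0009 to 0.23, RHOA from -0.0781 to 0.24 and SDCBP from -0.55 to 0.24. The cause of these reversals was not tested.

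Genes called numbered 64 (20 higher, 44 lower), 104 with assembled bases and 28 with a pseudocount of 0.1. Leaving out a library gave 7 to 16, with fewer samples. The higher share moved by over 10 percentage points with median-of-ratios scaling (21 of 49) and a 5 TPM filter (9 of 43). The balance turned to mostly higher without mismatch library 1, 2 or 3 (7 of 10, 9 of 13 and 7 of 9) and was 2 of 16 without PSENEN siRNA library 1, so no direction over all genes is read from these calls. The replicate block left 1 call, and PSENEN had an adjusted p of 0.306 there. Deviations of same-numbered libraries from their group means correlated across genes at -0.0489, 0.0001 and -0.0142, so the numbers were not taken as pairs. PSENEN also missed the threshold with a pseudocount of 0.1 (0.0542), no filter (0.0725) and a 5 TPM filter (0.0544). CLDN1 passed with FPKM (change 0.64, adjusted p = 0.0407), assembled bases (0.74, adjusted p = 0.0287) and quantile normalization (0.63, adjusted p = 0.0479). In percentage points, the share of the most abundant transcript ran with 1 library left out from -5.61 to 6.66 for EFNA4, -3.89 to 36.7 for EPHA4 and -11.8 to 0.329 for EPHB2, and from -31.9 to -20.6 for EPHA1. With no counts in the files, no counting interval is given.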

Other observations

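EPHB3, which is not among the 10 genes, had much of its signal in assembled transcripts that share an intron with it. They held 8.14, 13.6 and 12.3 TPM with the PSENEN siRNA and 9.76, 18.8 and 13.2 TPM with the mismatch siRNA. Counted library by library there were 17, and a form found in several libraries counts each time. These assembled values overlapped between groups. EPHA6, at 0 by reference transcripts, had short 2-exon assembled transcripts with different ends in 2 libraries. They were at 1.15 TPM in PSENEN siRNA library 3 and 0.537 TPM in mismatch library 1. EPHB1 had 1 assembled transcript of 3 exons, at 0.733 TPM in mismatch library 1. In mismatch library 2 an assembled transcript of 8 exons at 2.79 TPM shared an intron with EPHB4 and reached from 100818551 to 100880426 on chromosome 7, past the annotated start of that minus-strand gene, which lies at 100827521. AL138689.1, a transcript within an intron of EFNB2 on the same strand, was at 2.41, 2.08 and 2.29 TPM against 0.154, 1.92 and 1.81 TPM. All 3 PSENEN siRNA libraries were higher, as for 8.21% of all genes tested, with the nearest pair at 2.08 and 1.92 TPM. It was picked from the genes that overlap the 10 after its values were seen, and its relation to EFNB2 was not tested.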
